A study of Bos taurus with 10 samples.

Results

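The genes described here belong to the glutathione, thioredoxin and antioxidant enzyme systems. They were chosen by symbol: glutathione S-transferases (GST, MGST), glutathione peroxidases (GPX), enzymes that make and reduce glutathione, peroxiredoxins (PRDX), thioredoxins and their relatives (TXN), superoxide dismutases (SOD), catalase, glutaredoxins, selenoproteins (SELENO), quinone reductases (NQO), heme oxygenases (HMOX), and the regulator pair NFE2L2 and KEAP1. The rule found 68 genes among the 12674 of the deposited table, and all 68 passed the filter on low counts. RNA had been sequenced from intramuscular fat, which lies between muscle fibres, and from subcutaneous fat of 5 adult Angus-cross heifers, female cattle without treatment stated in the labels. There were 5 libraries of each depot, called replicates 1 to 5 here, and libraries that share a number were treated as coming from 1 animal. The series set out to find what may underlie the later and slower growth of intramuscular fat.

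Cells make superoxide and hydrogen peroxide as by-products of respiration and of enzymes of fat oxidation. Superoxide dismutases turn superoxide into hydrogen peroxide, and catalase, glutathione peroxidases and peroxiredoxins turn the peroxide into water. Glutathione reductase and the thioredoxin reductases recharge these systems with electrons from NADPH, for which lipid synthesis in fat also competes. Glutathione S-transferases attach glutathione to reactive lipid products. The transcription factor NRF2, the product of NFE2L2, drives many of these genes and is held in check by KEAP1.

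Counts over the listed genes ranged from 9392739 to 14836808 in intramuscular and from 13776094 to 17685678 in subcutaneous libraries. The 68 genes took 0.992 to 1.25% of counts in intramuscular and 1.23 to 1.422% in subcutaneous libraries. The fat cell marker list (14 of 16 genes with values, ADIPOQ, PLIN1 and FABP4 among them) summed to 7202 to 24923 CPM (counts scaled to a common library size) in intramuscular and 24022 to 36280 CPM in subcutaneous libraries, with 0 genes higher and 2 lower. The striated muscle list (10 of 32 genes with values) summed to 342 to 1854 CPM against 3.52 to 9.93 CPM, and 10 of 10 were higher. Its members NMRK2, LRRC30, ANO5 and CACNG6 were at 0 in all subcutaneous libraries. CKM, TTN, NEB and MYH7 of the same list had no values, so the muscle sums leave them out. The macrophage list (13 of 14 genes with values, 4 lower) summed to 199.96 to 478 against 209.5 to 1085 CPM. The endothelial list (13 of 13, 4 lower) summed to 2067 to 2632 against 2576 to 4646 CPM. The fibro-adipogenic progenitor list (14 of 15 with values, 4 lower) summed to 10982 to 12344 against 9365 to 20503 CPM. The mural cell list (6 of 10 with values, 3 higher) summed to 1031 to 1745 against 600.3 to 978 CPM, without overlap between depots. The Schwann cell and nerve list (11 of 11, 6 higher and 1 lower) summed to 521 to 921 against 703 to 1510 CPM. The median log2 fold change of its genes, intramuscular over subcutaneous, was 1.59, opposite in direction to the sum. Higher and lower in these lists mean an edgeR adjusted p under 0.05, which 6.75% and 5.49% of all tested genes reached in those directions. The part of these cell types in the members' differences was not tested. In these tissue samples, fewer cells of a type and less RNA per cell cannot be told apart.

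Of the 68 antioxidant genes, 10 fell in intramuscular relative to subcutaneous fat, 0 rose and 58 did not pass the threshold. The 10 were NQO1, TXNDC12, TXNRD3, TXNRD2, MGST3, GSTT1, GPX8, TXNDC5, NQO2 and MGST1. These 10 of 68 members compare with a background of 5.49% of all tested genes lower, and the 0 higher members with 6.75% of genes higher (edgeR's quasi-likelihood test, Benjamini-Hochberg adjusted p under 0.05 over 12521 genes). At an unadjusted p under 0.05, 28 members were lower and 1 was higher. Over all 12521 tested genes, 2030 were lower and 1816 higher at that level, 3846 together. Of the 68, 57 had a negative log2 fold change, with a median of -0.38, while 52.9% of all tested genes had a negative one, with a median of -0.04. All 5 intramuscular values lay under all 5 subcutaneous ones for 6 members (background 5.04%) and above them for 0 (background 7.85%). The log2 fold change of the members ran from -2.75 (GSTP1) to 0.85 (SOD3).

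Comparing the depots within animals gave more calls. With the animal as a block, edgeR called 17 members lower and 1 higher (background 6.96% lower and 8.09% higher). HMOX2, GSS, GPX4, SOD1, PRDX1, GSTP1, GSTT2 and GSTT4 were then also called lower and SOD3 higher, while GPX8 was not called (adjusted p = 0.0576). Levels were lower in intramuscular fat in 5 of 5 animals for 23 members, against 15% of all tested genes, and higher in 5 of 5 for SOD3 alone among members, against 15.7%. The authors' deposited table, from DESeq2, lists 17 members lower and 1 higher at an adjusted p of 0.05 (background 9.24% and 10.8%), which include each of the 10 called above, also as lower. By limma voom, 9 members were lower and 1 higher (background 4.74% and 7.37%).

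**Figure D1:**
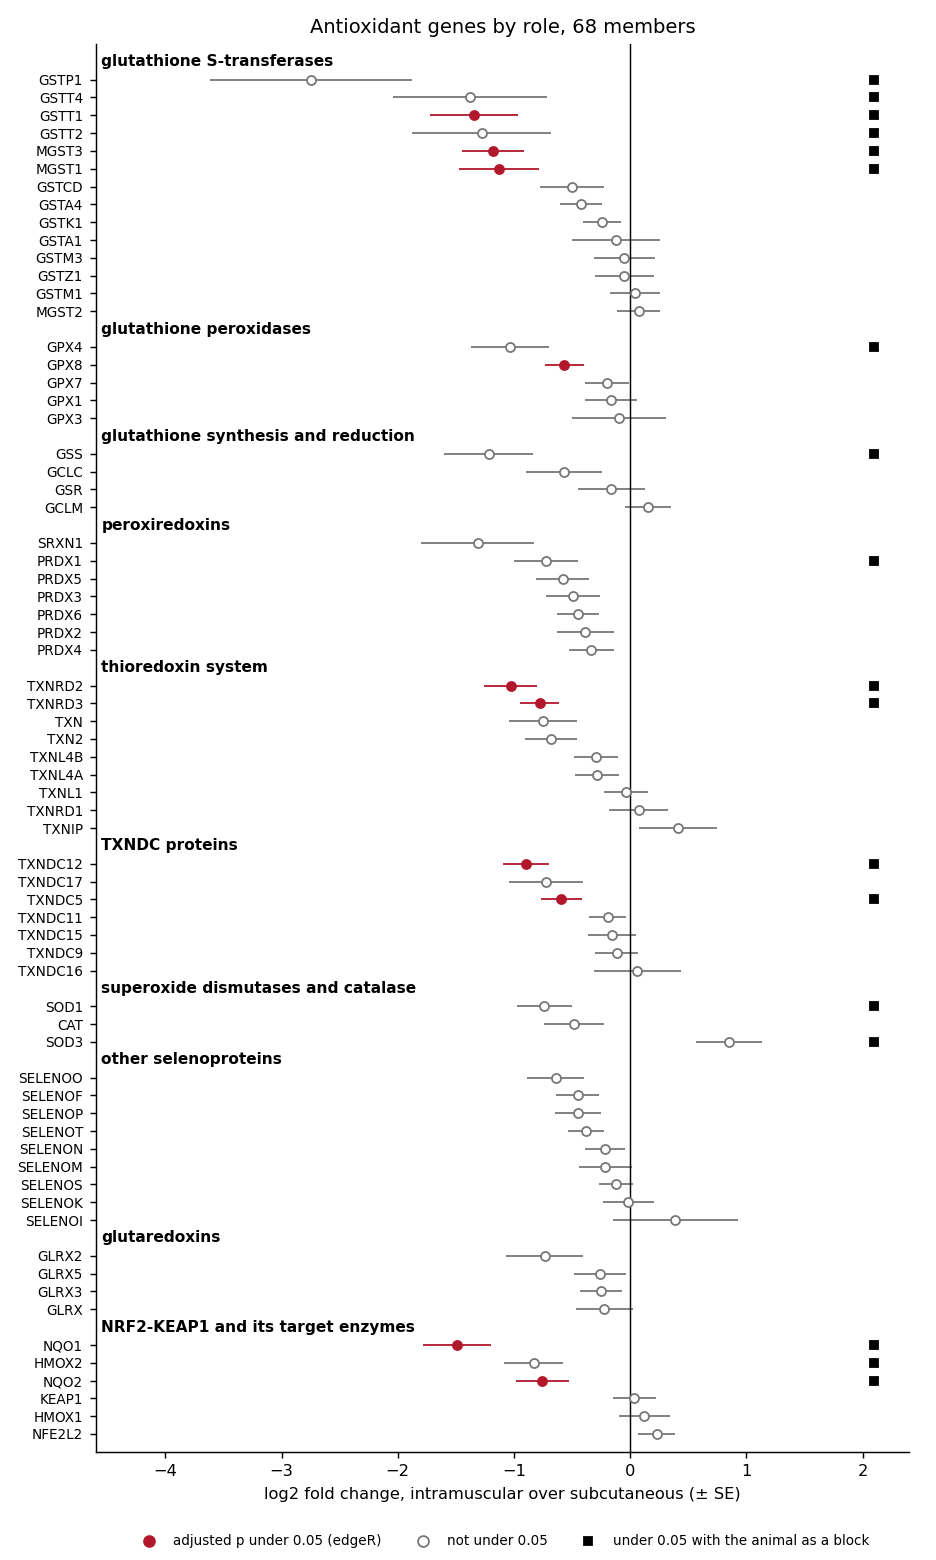
Log2 fold change (intramuscular over subcutaneous, ± SE, 5 libraries per depot) of the 68 antioxidant genes by role; filled red points passed the threshold without the animal as a block, and black squares mark those that passed with it. The points lie mostly left of 0, from -2.75 for GSTP1 to 0.85 for SOD3, and the peroxiredoxin group lies left of 0 throughout.

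Among glutathione S-transferases, 3 of 14 fell and 0 were higher (background 5.49% and 6.75%), with a median log2 fold change of -0.46. These enzymes couple glutathione to electrophiles. The calls were the membrane-bound MGST3 and MGST1 and the theta-class GSTT1. MGST3 (chromosome 3, 3264993 to 3288716, in the coordinates of the deposited table) measured 222, 269, 266, 405 and 422 CPM in intramuscular replicates 1 to 5. In the subcutaneous libraries it measured 464, 534, 905, 639.8 and 1044 CPM. The depots did not overlap, a separation in this direction that 5.04% of all tested genes share, and the log2 fold change was -1.18 ± 0.27 (± SE, edgeR adjusted p = 0.0144).

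MGST1, which sits in the membranes of the endoplasmic reticulum and mitochondria, had the highest level per kilobase of all members in subcutaneous fat (1066 CPM per kb, against 487 in intramuscular fat, where it ranked 2 behind TXNIP). Its intramuscular values (chromosome 5, 93497064 to 93521047) were 314, 615, 651, 1078 and 1055 CPM in replicates 1 to 5. Subcutaneous values were 1010, 1079, 1727, 1866 and 2446 CPM. Intramuscular replicates 4 and 5 lay above subcutaneous replicate 1, yet each animal had less MGST1 in its intramuscular fat (background 15%). The log2 fold change was -1.13 ± 0.34 (edgeR adjusted p = 0.0487, or 0.00696 with the animal as a block). MGST2, the third gene of that name, measured 34.1 ± 8.27 against 32.4 ± 3.85 CPM (SD, n = 5, edgeR adjusted p = 0.825).

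The 3 theta-class genes GSTT4, GSTT1 and GSTT2 lie in that order on the plus strand of chromosome 17, between 71311471 and 71334085. Reads of such related copies may have been shared in counting, so their values are not fully separate. GSTT1 (71318878 to 71326525) measured 55.6, 101, 165, 129 and 88.3 CPM in intramuscular replicates 1 to 5 and 90.6, 192, 423, 321 and 341 CPM in subcutaneous ones. Animal 1 had the lowest value in each depot and animal 3 the highest. The log2 fold change of GSTT1 was -1.34 ± 0.38 (edgeR adjusted p = 0.0370).

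GSTT2 followed the animals more widely still, at 47.6, 161, 375, 162 and 80.9 CPM in intramuscular and 75.8, 203, 635, 728 and 363 CPM in subcutaneous fat. The SD over animals was 127 CPM in intramuscular and 277 CPM in subcutaneous fat around means of 165 and 401 CPM, and the unblocked test did not call GSTT2 (-1.28 ± 0.60, edgeR adjusted p = 0.166). GSTT4, at 3.29 ± 2.28 against 8.60 ± 6.14 CPM (SD, n = 5), was not called either (adjusted p = 0.177). Once animals were blocked, GSTT1 had an adjusted p of 0.00440 by edgeR, GSTT2 of 0.0299 and GSTT4 of 0.0351. All 3 genes were lower in intramuscular fat in 5 of 5 animals (background 15%).

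**Figure D2:**
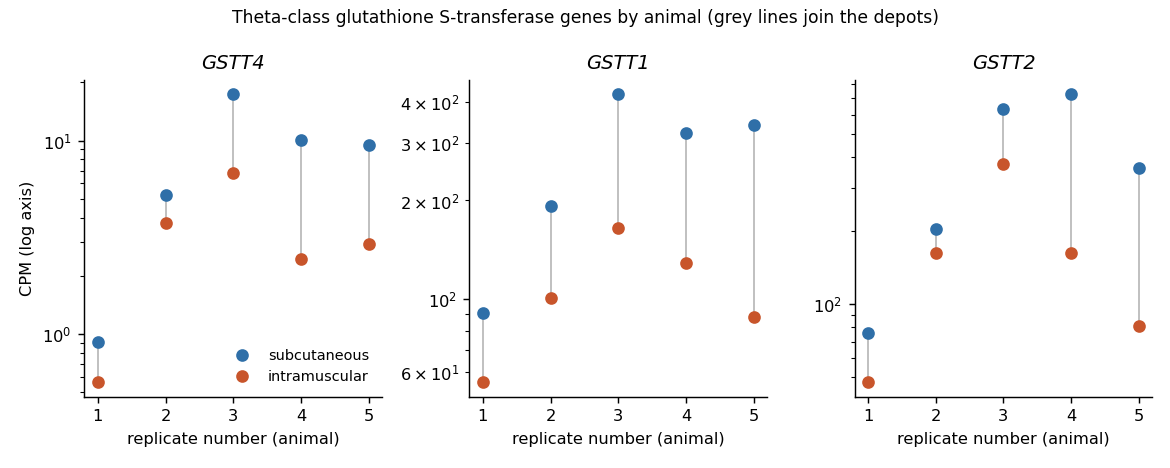
Level of GSTT4, GSTT1 and GSTT2 in CPM (log axis) in both depots of each of the 5 animals, 1 library per point, with a grey line joining the depots of an animal. The intramuscular point lies below the subcutaneous one in every animal for each gene (background 15% of all tested genes). Animal 1 is lowest in both depots, with GSTT2 at 47.6 and 75.8 CPM.

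The other transferases showed smaller differences or were near the limit of counting. GSTM1, the most strongly counted mu-class gene, measured 781 ± 199.7 against 758 ± 154 CPM (SD, n = 5, edgeR adjusted p = 0.912). GSTA4, which handles aldehydes from lipid peroxidation, measured 126 ± 20.9 against 169 ± 33.7 CPM (adjusted p = 0.131). GSTP1, the pi-class enzyme, was near the limit of counting, with at most 52 reads in a library. It measured 0, 1.03, 0, 0.203 and 0.270 CPM in intramuscular libraries and 0.904, 1.61, 1.49, 2.94 and 3.54 CPM in subcutaneous ones. Its log2 fold change of -2.75 ± 0.87 had an edgeR adjusted p of 0.0550, and 0.0394 with the animal as a block. GSTA1, GSTK1, GSTM3, GSTCD and GSTZ1 had log2 fold changes from -0.50 (GSTCD) to -0.05, and none passed either test. GSTCD, with 38 to 100 reads in a library, was uncalled although its depots did not overlap (background 5.04%). It measured 3.92 ± 0.80 against 5.55 ± 0.58 CPM (SD, n = 5).

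Glutathione peroxidases reduce peroxides, several of them with glutathione. Of the 5 genes, 1 fell and 0 were higher (median -0.20, background 5.49% lower and 6.75% higher). The gene called was GPX8, an endoplasmic reticulum form without selenium (chromosome 20, 23951563 to 23956371). It measured 32.0, 32.3, 29.1, 40.6 and 35.3 CPM in intramuscular replicates 1 to 5. Subcutaneous replicates had 49.4, 37.2, 62.2, 48.5 and 53.3 CPM. Intramuscular replicate 4 lay above subcutaneous replicate 2, so the depots overlapped at 1 point (-0.57 ± 0.17, edgeR adjusted p = 0.0435).

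GPX4, the selenoenzyme that reduces lipid hydroperoxides inside membranes and guards against ferroptosis, was the peroxidase with the highest level per kilobase in both depots (338 and 693 CPM per kb). It measured 176, 258, 311, 418 and 394 CPM in intramuscular and 303, 447, 859, 522 and 1059 CPM in subcutaneous replicates 1 to 5. Levels were lower in intramuscular fat in 5 of 5 animals (background 15%). The edgeR adjusted p was 0.0599 (-1.04 ± 0.34), and 0.0173 with the animal as a block.

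The other peroxidases were not called. GPX1, the main cytosolic form, measured 259.7 ± 24.2 against 291 ± 102 CPM (SD, n = 5, edgeR adjusted p = 0.656). GPX3, the secreted form found in plasma, ranged from 132 to 416 CPM in intramuscular and from 86.0 to 456 CPM in subcutaneous libraries, a wide spread in both depots (adjusted p = 0.898). GPX7 measured 27.1 ± 3.19 against 31.1 ± 7.22 CPM.

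Of the 4 genes that make and reduce glutathione, 0 passed the threshold by edgeR (1 at an unadjusted p under 0.05, and 1 with the animal as a block, in both cases GSS). Over all tested genes, 3846 of 12521 had an unadjusted p under 0.05. Glutathione synthetase (GSS) carries out the last step of synthesis. It measured 20.7, 30.1, 35.2, 84.0 and 54.2 CPM in intramuscular and 41.0, 93.3, 141, 113 and 134 CPM in subcutaneous replicates 1 to 5. Every animal had less GSS in intramuscular fat, as for 15% of all tested genes (-1.22 ± 0.38, edgeR adjusted p = 0.0547, or 0.00795 with the block). Neither subunit of the first and rate-limiting enzyme was called: the catalytic GCLC measured 31.1 ± 11.01 against 46.2 ± 20.6 CPM, and the modifier GCLM 23.8 ± 1.76 against 21.3 ± 5.63 CPM (SD, n = 5, adjusted p = 0.256 and 0.623). Glutathione reductase (GSR) was low in both depots, at 10.96 ± 1.43 against 12.3 ± 5.46 CPM.

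All 6 peroxiredoxins and the sulfiredoxin SRXN1, which revives overoxidised peroxiredoxins, had negative log2 fold changes (median -0.49), and 0 of these 7 passed the threshold by edgeR. At an unadjusted p under 0.05 there were 4, against 3846 of 12521 over all tested genes. PRDX1, the abundant cytosolic form, measured 189, 214, 277, 366 and 274 CPM in intramuscular and 249, 286, 649, 447 and 550.5 CPM in subcutaneous replicates 1 to 5. It was lower in 5 of 5 animals, as were 15% of all tested genes (-0.72 ± 0.28, edgeR adjusted p = 0.0986, or 0.0444 with the block). The subcutaneous values were more dispersed than the intramuscular ones, as they were for PRDX5 (128 ± 49.4 against 85.6 ± 3.97 CPM, SD, n = 5), a form of several compartments.

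PRDX6, which also repairs phospholipids, measured 369 ± 44.0 in intramuscular and 505 ± 109 CPM in subcutaneous fat (SD, n = 5). PRDX3 of the mitochondria measured 187 ± 40.7 and 263 ± 77.1 CPM. The edgeR adjusted p of PRDX5, PRDX6 and PRDX3 were 0.107, 0.112 and 0.171. SRXN1 measured 13.0 ± 2.12 against 32.3 ± 28.4 CPM, and most of the subcutaneous spread came from replicate 4 at 79.8 CPM. SRXN1 was higher in intramuscular fat in animal 1 (12.3 against 6.71 CPM) and lower in the other 4 animals (-1.31 ± 0.49, adjusted p = 0.0911).

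In the thioredoxin system 2 of 9 genes fell and 0 were higher (median -0.29, background 5.49% lower and 6.75% higher). Both called genes were thioredoxin reductases. These selenoenzymes pass electrons from NADPH to thioredoxin. TXNRD2, the mitochondrial reductase (chromosome 17, 72873707 to 72900850), measured 39.6, 47.1, 51.0, 45.8 and 37.2 CPM in intramuscular replicates 1 to 5 and 51.2, 88.1, 137, 70.8 and 104 CPM in subcutaneous ones. The depots did not overlap (background 5.04%), with subcutaneous replicate 1 just above the highest intramuscular library (-1.03 ± 0.23, edgeR adjusted p = 0.0142).

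TXNRD3, a reductase that acts on both thioredoxin and glutathione (chromosome 22, 60417817 to 60442172), also separated the depots (background 5.04%). It measured 37.4, 32.6, 31.7, 42.0 and 30.3 CPM in intramuscular and 48.3, 49.0, 77.1, 59.1 and 65.2 CPM in subcutaneous replicates 1 to 5 (-0.78 ± 0.17, edgeR adjusted p = 0.0128). TXNRD1, the cytosolic form, measured 88.4 ± 8.84 against 84.1 ± 41.5 CPM (SD, n = 5, adjusted p = 0.874). Subcutaneous replicates 1, 2, 3 and 5 of TXNRD1 lay between 58.7 and 75.1 CPM, under every intramuscular one, and replicate 4 stood at 157 CPM. Without subcutaneous replicate 4 its log2 fold change was 0.43 (adjusted p = 0.0748).

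Thioredoxin itself (TXN) measured 122 ± 35.7 CPM in intramuscular and 205 ± 89.3 CPM in subcutaneous fat (SD, n = 5). Its mitochondrial counterpart TXN2 measured 143 ± 22.7 and 229 ± 72.8 CPM. Their edgeR adjusted p were 0.109 and 0.0595. TXNIP, which binds thioredoxin, blocks it and restrains glucose uptake, had the highest level per kilobase of all members in intramuscular fat (773 CPM per kb). It measured 2305, 2613, 1858, 2665 and 1605 CPM in intramuscular and 2832, 2052, 1089, 1657 and 670.2 CPM in subcutaneous replicates 1 to 5. In 4 of 5 animals the intramuscular value was the higher one, with animal 1 the exception, and the spread left it uncalled (0.41 ± 0.33, adjusted p = 0.426). TXNL1, TXNL4A and TXNL4B, of which the latter pair are known from the spliceosome, had log2 fold changes from -0.29 to -0.04.

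The TXNDC genes encode proteins with a thioredoxin-like domain. Of these, 2 of 7 fell and 0 were higher (median -0.19, background 5.49% lower and 6.75% higher). Both encode oxidoreductases of the endoplasmic reticulum, where disulfide bonds of secreted proteins form. TXNDC12 (chromosome 3, 94278884 to 94312525) measured 40.5, 62.5, 65.8, 64.3 and 60.6 CPM in intramuscular and 73.6, 107, 146, 103 and 119 CPM in subcutaneous replicates 1 to 5. The depots did not overlap, as for 5.04% of all tested genes in this direction (-0.90 ± 0.20, edgeR adjusted p = 0.0126). TXNDC5, a relative of protein disulfide isomerase (chromosome 23, 47476520 to 47502237), measured 132, 178, 141, 210.0 and 197 CPM against 305, 267, 205, 237 and 279.9 CPM. Only intramuscular replicate 4 lay above a subcutaneous value, that of replicate 3 (-0.59 ± 0.18, adjusted p = 0.0465). TXNDC9, TXNDC11, TXNDC15, TXNDC16 and TXNDC17 had edgeR adjusted p of 0.139 or more.

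**Figure D3:**
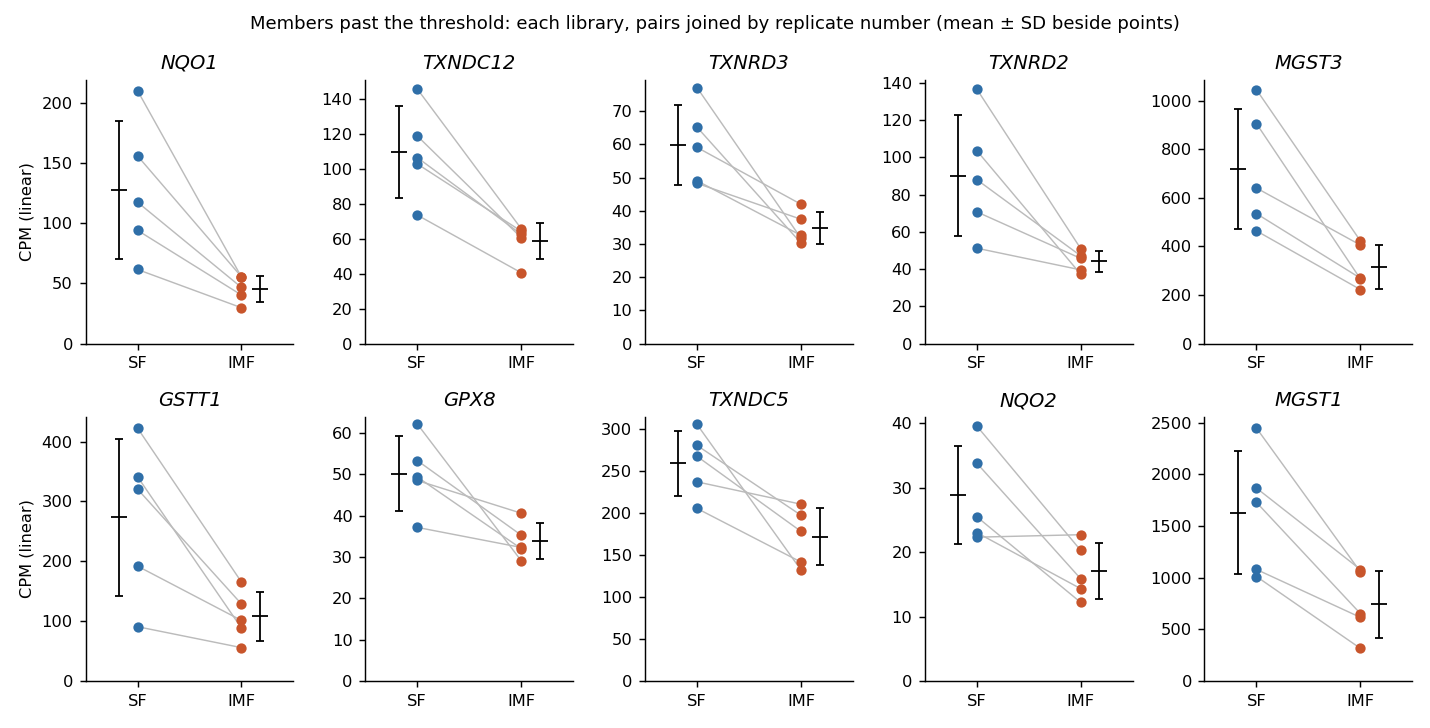
Level in CPM (linear axis from 0) of the 10 members called lower in intramuscular fat (IMF) than in subcutaneous fat (SF), 1 point per library, with grey lines joining the same replicate number and the mean ± SD (n = 5) beside the points. NQO1, TXNDC12, TXNRD3, TXNRD2 and MGST3 show no overlap between depots (background 5.04% of all tested genes). Each gene is lower in intramuscular fat in 5 of 5 animals (background 15%) except NQO2, in 4 of 5.

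The log2 fold changes of the superoxide dismutases had opposite signs. SOD1, the cytosolic copper-zinc enzyme, measured 158, 199.6, 218, 260.3 and 202 CPM in intramuscular and 241, 276, 528, 265 and 424 CPM in subcutaneous replicates 1 to 5. SOD3, the secreted form that binds the extracellular matrix, measured 75.7, 101, 78.7, 91.8 and 60.2 CPM against 42.5, 76.4, 19.7, 47.0 and 40.01 CPM. SOD1 was lower and SOD3 higher in intramuscular fat in 5 of 5 animals (background 15% and 15.7%). Their log2 fold changes were -0.74 ± 0.23 and 0.85 ± 0.28, and edgeR gave adjusted p of 0.0561 for SOD1 and 0.0645 for SOD3. Blocking on the animal gave 0.0495 and 0.0247. Catalase (CAT) of peroxisomes measured 821 ± 187 against 1147 ± 374 CPM (SD, n = 5, adjusted p = 0.218). Subcutaneous replicates 4 and 5, at 761 and 728 CPM, lay within the intramuscular range for CAT. SOD2, the mitochondrial dismutase, was not analysed here.

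None of the 9 SELENO genes passed the threshold by edgeR, with or without the animal as a block. An unadjusted p under 0.05 was found for 4, against 3846 of 12521 tested genes. Of the 9 SELENO genes, 8 had a negative log2 fold change (median -0.22). These proteins carry selenocysteine, the amino acid that holds selenium. SELENOP, which carries selenium to tissues through plasma, was the most abundant per kilobase (225 and 307 CPM per kb). It measured 313, 474, 475, 582 and 588 CPM in intramuscular and 751, 649, 722, 704 and 495 CPM in subcutaneous replicates 1 to 5. Subcutaneous replicate 5 lay within the intramuscular range (-0.45 ± 0.20, edgeR adjusted p = 0.150).

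SELENOO of mitochondria was nearly constant in intramuscular fat, at 91.0 ± 2.23 CPM, and measured 142 ± 63.2 CPM in subcutaneous fat (SD, n = 5, edgeR adjusted p = 0.104). SELENOT of the endoplasmic reticulum measured 76.4 ± 11.6 against 99.5 ± 11.4 CPM (adjusted p = 0.111), and SELENOM 44.0 ± 9.06 against 51.0 ± 17.8 CPM (adjusted p = 0.554). Counting GPX1, GPX3, GPX4 and the thioredoxin reductases with them, 2 of 15 selenoprotein genes fell, TXNRD2 and TXNRD3 (background 5.49%). The separate list of selenocysteine machinery had 0 called of 8 tested genes (median -0.40). Of these 8, 1 had an unadjusted p under 0.05, against 3846 of 12521 tested genes.

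All 4 glutaredoxins, small proteins that use glutathione to reduce disulfides or to carry iron-sulfur clusters, had negative log2 fold changes. None was called by edgeR (1 at an unadjusted p under 0.05, against 3846 of 12521 tested genes). GLRX2, which overlaps TROVE2 on the other strand, measured 17.1 ± 4.45 against 28.4 ± 13.3 CPM (SD, n = 5, edgeR adjusted p = 0.153). GLRX, GLRX3 and GLRX5 had log2 fold changes of -0.22, -0.25 and -0.26.

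In the NRF2 group, 2 of 6 genes fell (background 5.49%), both quinone reductases. NQO1 is a widely used readout of NRF2 activity and reduces quinones with NADPH or NADH (chromosome 18, 36784720 to 36798053). It measured 29.8, 40.3, 55.5, 55.3 and 46.6 CPM in intramuscular and 61.6, 94.1, 156, 210.2 and 118 CPM in subcutaneous replicates 1 to 5. The depots did not overlap (background 5.04%). NQO1 had the smallest p of all 68 members and was 2.81-fold lower (-1.49 ± 0.30, edgeR adjusted p = 0.00778). NQO2, a related reductase with another electron donor (chromosome 23, 50621892 to 50632743), measured 17.1 ± 4.33 against 28.9 ± 7.55 CPM (SD, n = 5, adjusted p = 0.0486). It was lower in 4 of 5 animals, with 22.7 against 22.3 CPM in animal 4.

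Neither regulator was called. NFE2L2 measured 107, 131, 131, 105 and 101 CPM in intramuscular and 127, 94.6, 90.7, 99.3 and 79.1 CPM in subcutaneous replicates 1 to 5 (0.23 ± 0.16, edgeR adjusted p = 0.345). KEAP1 measured 122 ± 30.6 against 119 ± 19.0 CPM (SD, n = 5, adjusted p = 0.913). Heme oxygenase 1 (HMOX1), the inducible enzyme of heme breakdown, measured 43.2 ± 6.45 against 39.7 ± 13.1 CPM (adjusted p = 0.744). HMOX2, the constitutive form, measured 41.7, 69.2, 71.2, 87.8 and 79.5 CPM against 70.4, 99.3, 149.7, 124 and 178 CPM. It was lower in 5 of 5 animals (background 15%) and did not pass the unblocked test (-0.83 ± 0.25, edgeR adjusted p = 0.0503, or 0.0112 with the animal as a block).

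Related members were also compared within each library, as the log2 ratio of their CPM, which does not depend on library scaling. Of 16 pairs with values, 0 passed a two-sided exact permutation test over libraries after Benjamini-Hochberg adjustment over the 16, and 6 had an unadjusted p under 0.05. The smallest p that 5 against 5 libraries allow is 0.00794, and at least 3 pairs would have needed it to pass. SOD1 over SOD3 and HMOX1 over HMOX2 reached it (adjusted p = 0.0635, exact permutation). The SOD1 to SOD3 log2 ratio was 1.06, 0.98, 1.47, 1.501 and 1.75 in intramuscular and 2.50, 1.85, 4.73, 2.49 and 3.40 in subcutaneous replicates 1 to 5. For HMOX1 to HMOX2 it was 0.29, -0.76, -0.53, -1.23 and -1.07 against -1.46, -1.45, -2.32, -1.25 and -1.70. The depots did not overlap for either pair.

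The catalytic to modifier ratio GCLC to GCLM was 0.31 ± 0.47 in intramuscular and 1.03 ± 0.39 in subcutaneous fat on the log2 scale (SD, n = 5, exact permutation p = 0.0397, adjusted p = 0.127). GPX1 over GPX4 was -0.20 ± 0.47 against -1.06 ± 0.52 (exact permutation p = 0.0317, adjusted p = 0.127). TXNRD1 over TXNRD2 stood at 1.00 ± 0.05 in intramuscular fat and ranged from -1.22 to 1.15 in subcutaneous fat (exact permutation p = 0.0476, adjusted p = 0.127). The MGST1 to MGST3 ratio moved by -0.02 and the TXN to TXN2 ratio by -0.06 (exact permutation p = 0.937 and 0.746).

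**Figure D4:**
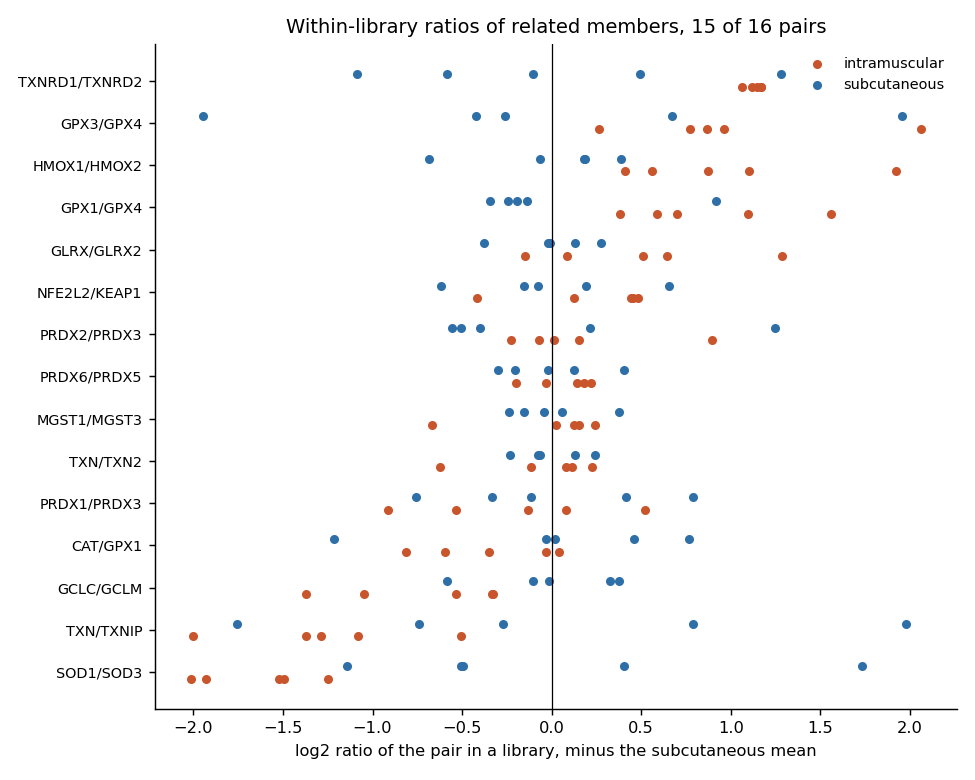
Within-library log2 ratios of 15 pairs of related members, shown relative to the subcutaneous mean of each pair, 1 point per library (5 per depot). SOD1/SOD3 lies to the left and HMOX1/HMOX2 to the right in intramuscular fat without overlap; GSTP1/GSTM1 is left out because GSTP1 was counted at 0 in intramuscular replicates 1 and 3.

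Genes around the members were read from lists of the same pathways, and their counts stand beside 5.49% lower and 6.75% higher over all tested genes. Of 11 NADPH supply genes 3 fell and 1 rose (median -0.78). The pentose phosphate enzyme TALDO1 fell from 1772 ± 791 to 584 ± 266 CPM, and NNT, which makes NADPH in mitochondria, rose from 57.2 ± 13.8 to 106.0 ± 34.5 CPM (SD, n = 5, edgeR adjusted p = 0.0199 and 0.0292). Of 16 genes of glutathione turnover and cysteine supply 1 fell, OPLAH, which returns glutamate from 5-oxoproline (-0.70 ± 0.16, adjusted p = 0.0143), and the list median was 0.04. In the list of NRF2 regulators 1 of 11 fell, DPP3, a peptidase that binds KEAP1 (-0.89 ± 0.22, adjusted p = 0.0203). There 1 gene rose, BACH1, a repressor of NRF2 target genes (1.422 ± 0.38, adjusted p = 0.0315), at 7.36 ± 2.94 against 2.74 ± 0.950 CPM. The median of the regulator list was 0.51. At an unadjusted edgeR p under 0.05, 5 of its 11 genes were higher and 3 lower, against 1816 and 2030 of 12521 tested genes.

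Of 19 further NRF2 target genes 3 fell and 0 rose (median -0.45). They were the aldehyde reductase AKR1A1 (-0.96 ± 0.21, edgeR adjusted p = 0.0118) and the pentose phosphate enzymes TALDO1 and PGD. PGD overlapped between depots (-1.18 ± 0.36, edgeR adjusted p = 0.0479). It is not among the pathway genes named by rule, so its call was not followed with libraries left out. Among 9 methionine sulfoxide reductase and sestrin genes, 1 rose and 1 fell. MSRB3 rose from 42.2 ± 9.40 to 114 ± 37.8 CPM (SD, n = 5, adjusted p = 0.00199), while CCS, the copper chaperone of SOD1, fell from 106.0 ± 28.9 to 68.4 ± 9.66 CPM (adjusted p = 0.0467). The call of CCS was lost with the animal as a block (edgeR adjusted p = 0.0571), with upper-quartile scaling (0.0508), with RLE scaling (0.05003) and by limma voom (0.0509). In the ferroptosis and iron list 1 of 14 rose, the transferrin receptor TFRC (2.42 ± 0.56, adjusted p = 0.0160). In the heme breakdown list 2 of 5 fell, the transporter ABCG2 (-1.20 ± 0.24, adjusted p = 0.00854) and CD163, a hemoglobin scavenger receptor of macrophages (-1.25 ± 0.36, adjusted p = 0.0398). The list of superoxide and peroxide producers had 0 called of 14 by edgeR, and 1 higher with the animal as a block (background 8.09%). Of these 14, 4 had an unadjusted p under 0.05, against 3846 of 12521 tested genes.

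Without 1 library, the adjusted p of TALDO1 was 0.0570 (intramuscular replicate 3), that of DPP3 0.0527 and 0.0614 (intramuscular 2 and 3), and that of NNT 0.0671, 0.0840, 0.0582 and 0.0520 (intramuscular 1 and 3, subcutaneous 3 and 5). That of BACH1 reached 0.0935 and that of CD163 0.0977, both without intramuscular replicate 3, and each also lost its call without intramuscular 1 or 2 or subcutaneous 5. BACH1 did so without subcutaneous 3 and CD163 without subcutaneous 2 as well. CCS kept its call only without subcutaneous 4 or 5. BACH1 was not called by limma voom either (adjusted p = 0.0588). MSRB3, ABCG2, AKR1A1, OPLAH and TFRC passed in all 10 such edgeR fits. Without both intramuscular replicates 1 and 3, MSRB3 alone of the 11 pathway genes named by rule was called (edgeR adjusted p = 0.0132). The adjusted p was then 0.0689 for ABCG2, 0.108 for AKR1A1, 0.102 for OPLAH and 0.146 for TFRC, and from 0.130 to 0.221 for TALDO1, DPP3, CCS, BACH1, CD163 and NNT. The log2 fold change of NNT was 0.51 in that fit.

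The members' levels also differed between libraries of the same depot. The 10 called members, taken as the median of their log2 CPM relative to the subcutaneous mean, stood at -1.25, -1.03, -0.84, -0.62 and -0.76 in intramuscular replicates 1 to 5. In subcutaneous replicates 1 to 5 they stood at -0.55, -0.29, 0.40, -0.04 and 0.22. These 10 were chosen by this contrast, so the gap between depots is a description. Over all 68 members the medians ran from -0.54 to -0.24 in intramuscular and from -0.30 to 0.30 in subcutaneous libraries, and subcutaneous replicate 1 lay within the intramuscular range.

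Marker sums of fat and muscle cells also varied among intramuscular libraries. Summed fat cell markers were 7202, 16109, 16258, 23205 and 24923 CPM in intramuscular replicates 1 to 5, lowest in replicate 1, where the called members were also lowest. Striated muscle markers were 1854, 542, 992, 342 and 391 CPM in the same libraries, highest in replicate 1 and lowest in replicate 4, where the called members were highest. From lowest to highest, the intramuscular replicates ran 1, 2, 3, 4, 5 by fat cell sum and 1, 2, 3, 5, 4 by called members. From highest to lowest muscle sum they ran 1, 3, 2, 5, 4. Among subcutaneous libraries the fat cell sum was lowest in replicate 4 (24022 CPM), while the called members were lowest in replicate 1 (26314 CPM of fat cell markers), and the muscle sum was at most 9.93 CPM. The part of either in the result was not tested. Without intramuscular replicates 1 and 3, the pair with the most muscle marker counts, 0 members were called by edgeR (background 0.531% lower and 2.43% higher), and 15 lower (22.1% of members) and 1 higher had an unadjusted p under 0.05, against 9.73% and 9.53% of all genes in that fit. The log2 fold changes of the 10 called members were then -1.44 to -0.41, with adjusted p from 0.0614 to 0.254.

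**Figure D5:**
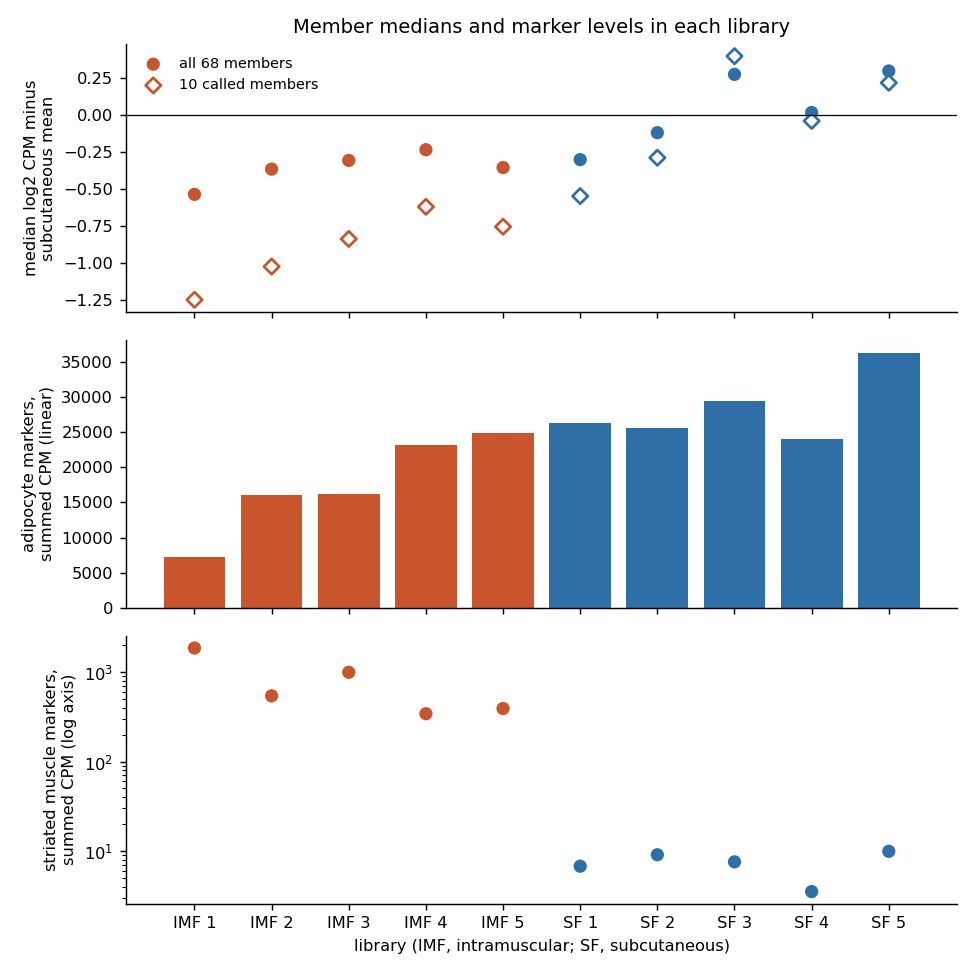
Top, median log2 CPM relative to the subcutaneous mean for all 68 members (filled circles) and the 10 called members (open diamonds) in each library; middle, summed CPM of 14 fat cell markers (linear axis); bottom, summed CPM of 10 striated muscle markers (log axis). Intramuscular replicate 1 has the lowest member medians, the lowest fat cell sum (7202 CPM) and the highest muscle sum (1854 CPM).

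Of the 10 calls, 5 held in all 10 fits that left out 1 library: NQO1, TXNDC12, TXNRD3, TXNRD2 and MGST3, with adjusted p of at most 0.0234, 0.0303, 0.0425, 0.0355 and 0.0445. GSTT1, GPX8, TXNDC5, NQO2 and MGST1 kept the call in 3, 2, 2, 3 and 4 of these fits, with adjusted p of up to 0.0874, 0.108, 0.109, 0.107 and 0.110. The number of members lower was 5, 6, 6 and 6 without intramuscular replicate 1, 2, 3 or 5, and 6 and 5 without subcutaneous replicate 3 or 5. It was 19 without subcutaneous replicate 1, when GPX4, GSS, SOD1, PRDX1, PRDX5, TXN, TXN2, HMOX2, SRXN1, GLRX2 and GSTP1 joined and GPX8 and TXNDC5 left. The number of all genes lower moved as well, from 688 to 369, 373, 263 and 445 without intramuscular replicate 1, 2, 3 or 5, to 361 and 493 without subcutaneous replicate 3 or 5, and to 887 without subcutaneous replicate 1.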

How the data were processed

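Libraries were grouped by depot from their titles, 5 in each. The labels' protocols give random priming, dUTP marking of the second strand and 10 PCR cycles. The submitters' processing notes name DESeq2 (1.42.0), featureCounts (2.0.2), STAR (2.7.11a) and Trimmomatic (0.39). Neither the build nor the strand setting of the counting is given in the sources. The authors deposited raw counts per gene and library. They also deposited mean counts and a base mean (signal values), a log2 fold change, a Wald score and p-values, of which only the fold change and adjusted p-value were used, to set beside the calls.

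CPM used TMM-scaled library sizes, log2 CPM a prior count of 2, and levels per kilobase the deposited gene lengths. The main test was edgeR 4.0.16's two-sided quasi-likelihood test in R 4.3.3 (filterByExpr, which removed 153 genes, no block, Benjamini-Hochberg over 12521 genes, threshold 0.05). The step was tested on simulated counts. SE is the fold change divided by the root of the F statistic. Alternatives used DESeq2 1.42.0, limma 3.58.1, other scalings and filters, a block, and libraries left out. Of 17 pairs chosen for ratios, 16 had values.

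The series' text says both depots came from 5 heifers, so libraries with equal numbers were treated as pairs. Across genes, the paired libraries' departures from the mean of their depot had correlations of 0.102, 0.181, 0.176, 0.161 and 0.237. Genes named by rule are all called members, the 2 most abundant and 2 of smallest p per role, and the paired members. Up to 2 called genes per pathway list were also named. The rule names 43 members, and the others described were chosen after their values were seen. These others are given as summary values, except GSTT2 and GSTT4. GSTT2 is also given library by library, and both are plotted for each animal beside GSTT1, which the rule names. The members and lists were chosen with earlier results of these data known. Depth limits precision mainly for genes of a few CPM.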

Additional observations from a re-analysis of the deposited data

Results flagged for a closer look

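In 6 of the 86 groups of 5 libraries examined (43 named members in 2 depots), 1 library lay far from the other 4, with a gap to its neighbour beyond what 5 values allow by Dixon's test; chance gives about 1 in 20 groups. TXNDC12 was lowest in intramuscular replicate 1 (40.5 CPM, next 60.6 CPM). KEAP1 was highest in that same library (174 CPM, next 117 CPM). PRDX2 and GSTM1 were highest in subcutaneous replicate 5, at 481 CPM (next 251 CPM) and 1029 CPM (next 716 CPM). TXNRD1 was highest in subcutaneous replicate 4 (157 CPM, next 75.1 CPM), the library that was also highest for SRXN1 and NQO1. GSTP1 was highest in intramuscular replicate 2 (1.03 CPM, next 0.270 CPM), a difference of a few counts.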

How the results depend on the processing

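Members lower numbered 17 by DESeq2 and 17 with the replicate block, 5 to 19 with 1 library left out, and 0 without both intramuscular libraries 1 and 3. Members higher numbered 1 by DESeq2, by limma voom and with the block, and 0 to 1 with 1 library left out. Over all genes, 845 were higher and 688 lower, against 1369 and 1171 by DESeq2, 494 to 1008 and 263 to 887 with 1 library left out, and 306 and 67 without both. RLE and upper-quartile scaling kept 8 and 7 of the 10 called members, limma voom 8, the block 9, and DESeq2 and both other low-count filters 10. Ratios called numbered 4 by limma (GSTP1/GSTM1, SOD1/SOD3, TXNRD1/TXNRD2 and HMOX1/HMOX2), and 0 under all other settings; with sign flips of 5 pairs the smallest p is 0.0625, so none could pass. Where limma gave more, the cause was not tested.

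The median of the members lay between -0.43 and -0.33 under every alternative run. GPX3 changed sign by limma voom (0.014), with the block (0.054) and without both intramuscular libraries 1 and 3 (0.18), as did HMOX1 (-0.045) and KEAP1 (-0.16) without both. With 1 library left out, the log2 fold change was -0.38 to 0.20 for GPX3, -0.12 to 0.13 for KEAP1, -0.066 to 0.18 for GSTM1, -0.033 to 0.43 for TXNRD1, -0.00082 to 0.26 for HMOX1, -0.28 to 0.018 for GPX1 and -0.34 to 0.0026 for SELENOM. Of 990 recomputed fold changes and medians, 843 kept direction and side of the threshold, 94 lost the call, 33 gained it and 20 changed sign.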
